A study of Mus musculus with 768 samples.

Results

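The 78 genes described here encode proteins of the cytosolic ribosome. They were taken by name from a table of 32679 genes: 84 symbols had the form of a large-subunit (Rpl) or small-subunit (Rps) ribosomal protein, and a gene was kept when it had a count in at least 10% of the 675 wells with at least 50000 counts and 1000 genes. The members are 42 core proteins of the large subunit, 31 core proteins of the small subunit and 5 paralogues, namely Rpl7l1, Rpl22l1, Rpl36al, Rps4l and Rps27l. The gene annotation (GENCODE M21) lists 77 of them as protein coding and Rps4l as a transcribed pseudogene. The 6 names left out were Rpl6l, Rpl10l, Rpl3l, Rps3a3, Rps3a2 and Rpl24. Among the excluded, Rpl24 came closest to the limit with a count in 7.41% of wells, followed by Rps3a2 with 6.81% and Rps3a3 with 5.48%. Rps4l with 15.4%, Rpl7l1 with 23.1% and Rpl13a with 28.9% were the members nearest to the limit. A further 5 core ribosomal protein genes have names of another form, Rplp0, Rplp1, Rplp2 and Fau among them, and serve below as a comparison list.

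A ribosome pairs a small subunit, which reads the messenger RNA, with a large subunit, which joins amino acids. Each carries about 1 copy of each of its proteins, so the genes are transcribed broadly and their messages are abundant in growing cells. Many of these messages start with a run of pyrimidines, the 5′ terminal oligopyrimidine (TOP) tract, through which the mTORC1 kinase and the binding protein Larp1 set their translation. In the adult dentate gyrus, the part of the hippocampus where neurons are born through life, neuroblasts are the immature neurons that stem cells give rise to.

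The cells came from the dentate gyrus of 8 male mice aged 2 months that carried the Nestin:GFP reporter and were sorted for green fluorescence 1 cell to a well. The 4 control mice (1, 3, 5 and 7) received a negative control oligonucleotide and the 4 others (2, 4, 6 and 8) a miR-132 mimic, each as 150 pmol in 3 µl with lipofectamine 2000, once a week for 5 weeks. The first sort, on 17 April 2018, took mice 1 to 4, and the second, on 19 April 2018, took mice 5 to 8. The design text calls the tissue AD, while the labels of these mice name no transgene beyond the reporter. The sort rests on a reporter for Nestin, a filament protein of neural stem cells, but the wells held several other cell types, as described next. Libraries were made from whole transcripts with the Smart-seq2 protocol and have no molecular identifiers, so the counts are reads.

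The table held 768 wells, 96 per mouse, and 674 passed the limits on counts, genes and mitochondrial share. Wells were assigned to mice by the sample descriptions, while the sample titles gave the same mouse for only 96 of the 768. Each mouse kept 74 to 92 of its wells. The median well had 646630 counts and 2742 detected genes, and mouse totals were 4.39e+07 to 6.69e+07 counts. Clustering with every ribosomal protein gene removed gave 300 oligodendrocyte-like, 95 astrocyte-like, 83 pericyte-like, 38 neuroblast-like, 18 oligodendrocyte precursor-like and 16 fibroblast-like wells, and an endothelial-like class of 4 to 23 wells per mouse. Each named class had counts on every marker of its own list. The 10 neuroblast markers, which include Dcx and Sox11, summed to 6968 to 12015 CPM (counts scaled to a common library total) over the mice in neuroblast-like wells and to at most 757 in oligodendrocyte-like wells. No cluster took the neural stem cell name, and the 8 markers of that list had their highest summed mean in astrocyte-like wells, at 879 to 1700 CPM per mouse. A further cluster of 17 wells, most of which had more than 6000 genes, carried markers of several types and was left unnamed. All 7 named classes were present on both sort days, and the oligodendrocyte precursor-like and fibroblast-like wells were too few for a test. Nothing in the labels separates the mice within a group beyond mouse number and sort day. The p-values between classes measure how far the difference within a mouse varied over these mice. Those between treatments measure the spread of mice within a group, with sort day in the fit.

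Neuroblast-like wells devoted the largest share of their counts to ribosomal protein genes and astrocyte-like wells the smallest. The 78 members together took 2.41% ± 0.282 (SD, n = 8 mice) of all counts in neuroblast-like wells, with a range of 2.12% to 2.86%. In endothelial-like wells the share was 1.38% ± 0.0935 (SD, n = 8) and ranged from 1.24% to 1.49%. Every mouse thus had a higher share in its neuroblast-like wells than any mouse had in its endothelial-like wells. The share was 0.850% ± 0.0771 (SD, n = 8; 0.716% to 0.974%) in pericyte-like wells and 0.723% ± 0.0437 (SD, n = 8; 0.678% to 0.805%) in oligodendrocyte-like wells, and these neighbouring ranges overlapped. Astrocyte-like wells stood at 0.517% ± 0.0569 (SD, n = 8), and their highest mouse, at 0.609%, lay below the lowest oligodendrocyte-like value. No test was made on this sum.

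**Figure D1:**
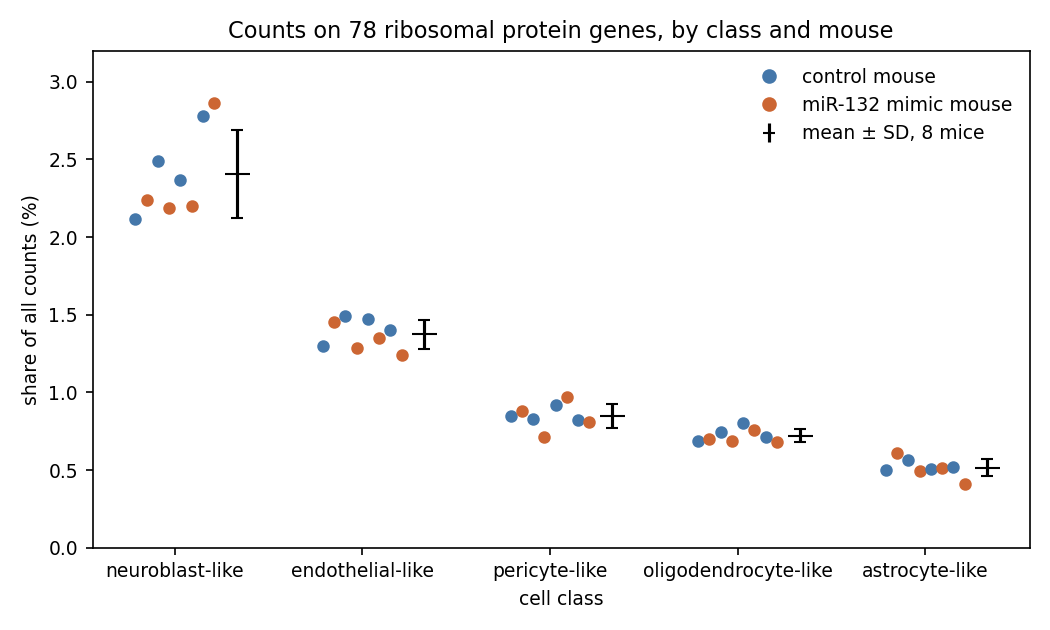
Share of all counts that fell on the 78 ribosomal protein genes (vertical axis, %) in 5 cell classes, with 1 point per mouse coloured by treatment and the mean ± SD over 8 mice beside the points. Neuroblast-like wells (2.12% to 2.86%) and endothelial-like wells (1.24% to 1.49%) lie above the other classes in every mouse, and control and mimic mice are intermixed.

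The order was the same on both sort days. On the first day the mean of 4 mice was 2.26% in neuroblast-like, 1.38% in endothelial-like, 0.819% in pericyte-like, 0.706% in oligodendrocyte-like and 0.544% in astrocyte-like wells. On the second day it was 2.55%, 1.37%, 0.881%, 0.739% and 0.490% in the same order. Oligodendrocyte precursor-like wells held 0.998% ± 0.277 (SD, n = 8) from 18 wells, and fibroblast-like wells held 0.952% ± 0.314 (SD, n = 5) from 16 wells. Wells with more than 6000 genes had 0.894%, close to the 0.903% of all kept wells. The depth of the classes was similar, with median counts per well from 544618 in neuroblast-like to 706150 in oligodendrocyte-like wells. Single wells spread widely, from 1.39% to 3.40% among the 38 neuroblast-like wells and from 0.0191% to 2.83% among the 300 oligodendrocyte-like wells. Across wells within a class, the share tracked the share of mitochondrially encoded genes with Spearman's rho of 0.71 over 38 neuroblast-like wells, 0.43 over the endothelial-like wells and 0.05 over 95 astrocyte-like wells. Both are shares of the same total in the same library, and this is given as a description only.

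The pattern ran through nearly all members and did not rest on a few abundant ones. Of the 78 genes, 74 had their highest mean CPM over 8 mice in neuroblast-like wells. Rpl38, Rps27 and Rps4l were highest in endothelial-like and Rpl22l1 in pericyte-like wells. The lowest mean of 53 genes was in astrocyte-like wells, that of 19 in oligodendrocyte-like and that of 6 in pericyte-like wells. The ratio of neuroblast-like to astrocyte-like mean CPM had a median of 4.36 over the members, with quartiles of 3.43 and 5.72. Against oligodendrocyte-like wells the median ratio was 3.67, and all 78 members were above 1. Against endothelial-like wells it was 1.76, with 75 members above 1. That last pair was not tested. The endothelial-like over astrocyte-like ratio had a median of 2.43, and 77 members were above 1.

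**Figure D2:**
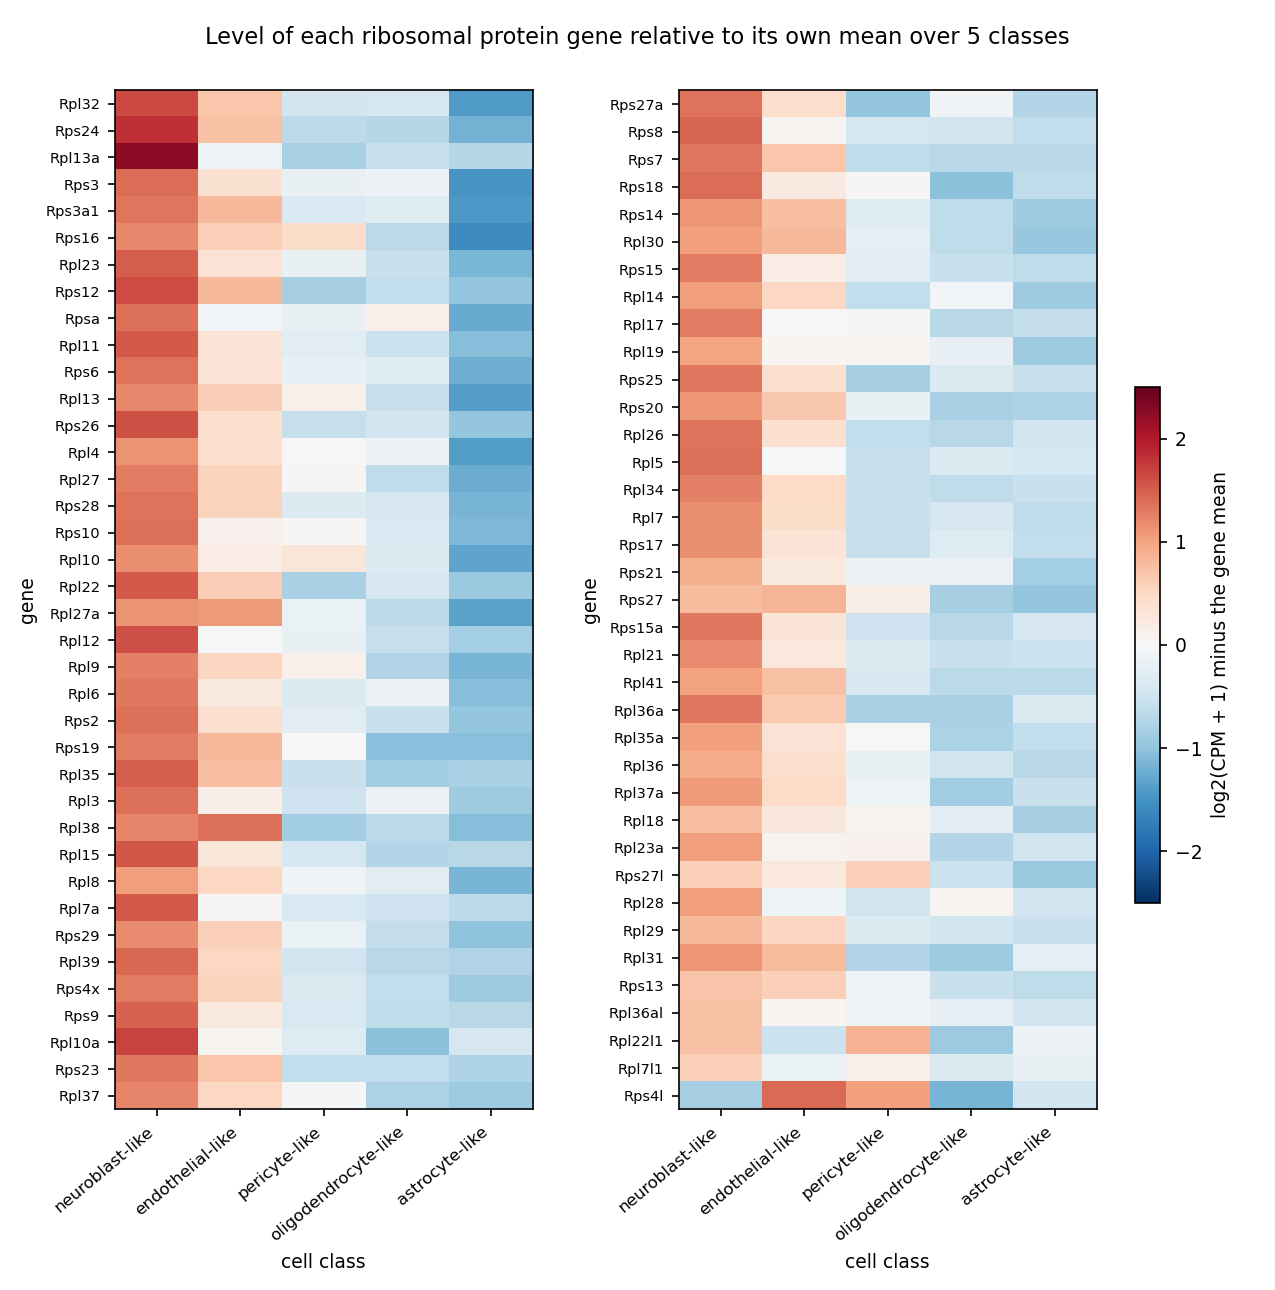
Level of the ribosomal protein genes reported here (rows) in 5 cell classes (columns) as log2(CPM + 1) of the mean over 8 mice, minus the gene's own mean over the 5 classes. The neuroblast-like column is the highest in every row but those of Rps4l, Rpl22l1, Rpl38 and Rps27.

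Rps24, a small-subunit protein, was among the members with this contrast. Its level in neuroblast-like wells ran from 289.8 to 644.7 CPM over the 8 mice, with a median of 411. In oligodendrocyte-like wells it ran from 64.96 to 83.1 CPM with a median of 75.1, and in astrocyte-like wells from 17.1 to 84.998 CPM with a median of 58.8. The neuroblast-like mice were separate from both. On the scaled counts of edgeR's quasi-likelihood fit (TMM scaling, Benjamini-Hochberg adjustment over all genes), the log2 fold was 1.62 ± 0.448 (SE) against oligodendrocyte-like wells (adjusted p = 0.00881) and 2.29 ± 0.460 against astrocyte-like wells (adjusted p = 0.000468). Both calls held when any 1 of the 8 mice was left out.

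Against oligodendrocyte-like wells, 8 of the 78 members rose in neuroblast-like wells and none fell, where 2.89% of all 8567 genes tested were called higher and 13.2% lower. The small subunit held 5 of the 8. Beside Rps24 they included Rps19, which is mutated in Diamond-Blackfan anaemia, with a log2 fold of 1.43 ± 0.448 (SE) and an adjusted p of 0.0227. Rps18 of the small subunit had a fold of 1.55 ± 0.551 with an adjusted p of 0.0495, and its call was lost in 7 of the 8 fits without a mouse. The median log2 fold of the members was 0.91 and that of all genes tested -0.87, so the members lay 1.78 above the typical gene. Scaling by total counts in place of TMM moved both medians, to 1.82 and -0.03, and called 59 members. The share of all genes called with that scaling is not given here, so the 59 cannot be set against a background. The values of the 8 neuroblast-like sums lay above all 8 oligodendrocyte-like sums for 59 members, where 4.11% of all genes did so. The edgeR count was fragile: leaving out any 1 mouse left 1 to 4 members called, and no member was called without the filter on low counts or with classes taken from marker scores. DESeq2 called 40 members and 28.5% of all genes.

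Against astrocyte-like wells, 33 members rose in neuroblast-like wells and none fell, where 2.61% of all genes were called higher and 10.4% lower. These were 19 of 31 small-subunit, 14 of 42 large-subunit and 0 of 5 paralogue genes. Rps3, which lines the channel where messenger RNA enters the ribosome, ran from 472 to 1634 CPM in neuroblast-like and from 39.9 to 320.8 CPM in astrocyte-like wells, without overlap. Its log2 fold was 2.15 ± 0.402 (SE) with an adjusted p of 0.000194 by edgeR. The largest called fold was that of Rpl32, at 2.31 ± 0.661 (adjusted p = 0.0151). Rps3a1 had a fold of 2.13 ± 0.451 (adjusted p = 0.000864). The members' median was 1.39 against -0.53 for all genes. Sums did not overlap between the classes for 54 members, all higher in neuroblast-like wells, where 2.86% of all genes were separate in that direction. Without mimic mouse 8 the count fell to 17, without the filter on low counts it was 0, and DESeq2 called 61 members and 27.8% of all genes.

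Both neuroblast-like comparisons rest on sums of at least 2 wells per mouse, a limit chosen after the wells had been counted. Only 3 mice had 5 or more neuroblast-like wells, the minimum used for every other comparison, and mouse 7 contributed 2. Intermediate progenitor markers, such as Mki67 and Eomes, summed to between 1.97 and 1617 CPM per mouse in these wells, against at most 2.38 CPM in astrocyte-like and 0.3304 CPM in oligodendrocyte-like wells. Their part in the result was not tested.

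Endothelial-like wells, from the lining of blood vessels, came second. Against oligodendrocyte-like wells 6 members rose and none fell, where 6.98% of all 8548 genes were called higher and 12.2% lower, so the share of members called, 6 of 78, was near the background. The sums did not overlap for 28 members, all higher in endothelial-like wells, where 7.08% of all genes were separate in that direction. The median log2 fold was 0.74 for members and -0.65 for all genes. Endothelial-like values in these folds come from 7 mice, since mouse 1 had 4 such wells. The 5 red blood cell markers summed to between 0 and 7653 CPM per mouse in endothelial-like wells, against at most 19.05 CPM in neuroblast-like, 15.8 in pericyte-like, 2.97 in astrocyte-like and 2.64 in oligodendrocyte-like wells. Their part in the results on endothelial-like wells was not tested.

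Rpl38 of the large subunit, known for its part in the translation of Hox messages in the embryo, was among the members called higher in endothelial-like wells. It was not particular to them: in neuroblast-like wells it ran from 93.1 to 290.3 CPM, and these 2 classes were not tested against each other. Over the 8 mice it ran from 86.4 to 240.8 CPM in endothelial-like wells, against 36 to 61.3 CPM in oligodendrocyte-like and 14.5 to 44.2 CPM in astrocyte-like wells, so that every endothelial-like value lay above both. The log2 fold by edgeR was 1.74 ± 0.518 (SE) against oligodendrocyte-like wells, with an adjusted p of 0.0155. Rps19 followed with 1.70 ± 0.492 (adjusted p = 0.0125), Rps27 with 1.40 ± 0.407 (adjusted p = 0.0130) and Rps14 with 1.19 ± 0.351 (adjusted p = 0.0147). The Rpl38 call held in 5 of the 8 fits that left out a mouse and in 8 of 10 other settings, and was lost without a filter on low counts (adjusted p = 0.633). The number of calls fell to 2 without mimic mouse 6 or control mouse 7, to 1 without mimic mouse 8 and to 0 without that filter, and DESeq2 called 21 members and 31.9% of all genes. Classes from marker scores left 1 call.

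Against pericyte-like wells, 7 members rose in endothelial-like wells and none fell, where 4.8% of all genes were called higher and 4.12% lower. Rpl38 led with a log2 fold of 2.42 ± 0.538 (SE; adjusted p = 0.00305 by edgeR). In pericyte-like wells it ran from 21.4 to 57.5 CPM, below every endothelial-like value. Sums were separate for 10 members, all higher in endothelial-like wells, where 3.23% of all genes were. Rps23, which sits at the decoding centre, had a fold of 1.69 ± 0.449 (adjusted p = 0.0136). Rps27a, made as a fusion with ubiquitin, had 1.65 ± 0.444 (adjusted p = 0.0153) and Rps7 1.55 ± 0.440 (adjusted p = 0.0221). Of the 8 fits that left out a mouse, 4 kept the Rps27a call and 1 kept that of Rps7. The median of members was 0.97 and that of all genes 0.25. Leaving out a mouse gave 2 to 8 calls, with 4 or fewer without mouse 4, 5, 6, 7 or 8, the fit without the filter on low counts gave 0, and DESeq2 gave 26, with 22.3% of all genes. The pericyte-like class includes 12 wells with smooth muscle markers; without them 11 members were called.

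Astrocyte-like wells were at the low end. Against endothelial-like wells 30 members fell and none rose, where 6.94% of all genes were called lower and 10.2% higher. The median log2 fold of the members was -1.25, and that of all genes 0.13. Those called were 15 genes of the small subunit and 15 of the large one. Rps3a1 had a log2 fold of -2.301 ± 0.488 (SE; adjusted p = 0.000965 by edgeR), Rpl38 -2.29 ± 0.519 (adjusted p = 0.00186) and Rps16 -2.28 ± 0.618 (adjusted p = 0.00905). Rpl27a was at -2.64 ± 0.921 (adjusted p = 0.0482), a call that was lost in 7 of the 8 fits without a mouse. Sums did not overlap for 26 members, where 5.46% of all genes were separate in that direction. Leaving out a mouse gave 17 to 30 calls, with 18 or fewer without mouse 6, 7 or 8, DESeq2 gave 39 (31.4% of all genes) and the fit without the filter on low counts 0. In that fit the adjusted p of Rps3a1 was 0.120.

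Against oligodendrocyte-like wells, 6 members fell in astrocyte-like wells and none rose, where 8.35% of all genes were called lower and 6.47% higher. The share of members called was thus near the background, and the median of the members, -0.53, was close to the -0.51 of all genes. Rpl4 of the large subunit ran from 65.8 to 403.9 CPM in astrocyte-like and from 385.5 to 615.5 CPM in oligodendrocyte-like wells, so that a single mouse, control mouse 7, overlapped. Its log2 fold by edgeR was -1.45 ± 0.335 (SE; adjusted p = 0.00256), and that of Rps3 was -1.64 ± 0.371 (adjusted p = 0.00200). Rps3a1 had -1.55 ± 0.474 (adjusted p = 0.0244). Rpsa, also known as a laminin receptor, had -1.78 ± 0.588 (adjusted p = 0.0395) and Rpl6 -1.16 ± 0.389 (adjusted p = 0.0430), and both calls were lost in 6 of 10 other settings. Of the 8 fits without a mouse, 1 kept the Rpsa call, 1 that of Rpl6 and 4 that of Rps3a1. One member, Rps6, named here after its values were seen, had astrocyte-like sums wholly below the oligodendrocyte-like ones, where 8.63% of all genes did. The count of calls was 2 or 3 without mouse 1, 5, 6, 7 or 8 and 0 without the filter on low counts, and DESeq2 called 8 members and 24.6% of all genes.

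Pericyte-like and oligodendrocyte-like wells differed in 1 member. Rps27a fell in pericyte-like wells, with a log2 fold of -1.33 ± 0.421 (SE; adjusted p = 0.0224 by edgeR), where 15% of all genes were called lower and 6.41% higher. Its 8 pericyte-like values, from 45.2 to 105.2 CPM, lay below the 8 oligodendrocyte-like values, from 115.96 to 189.9 CPM, where 10.5% of all genes were separate in that direction. Rpl13, named here after its values were seen, was separate in the other direction, at 209.2 to 393.7 against 140.96 to 199.9 CPM, where 5.03% of all genes were. These CPM are scaled by total counts. With TMM the log2 fold of Rpl13 was 0.24 ± 0.326 (SE) and did not pass the edgeR test (adjusted p = 0.709). DESeq2 called 4 members and 36.5% of all genes. The call was lost when total counts replaced TMM, without the filter on low counts, and without mouse 5, mouse 6 or mouse 7. The members' median was -0.26 with TMM and 0.17 with total counts, so its sign depended on the scaling, while the median of all genes was -0.93 and -0.52. Between the 2 oligodendrocyte-like clusters, the smaller of which has 77 wells and Fos and Egr1 among its leading genes, edgeR called 0 members, where 0.0513% of all genes were called. Rps4l was the 1 member with an unadjusted p under 0.05, and DESeq2 called 1 member and 5.84% of all genes. The share of counts on members was 0.725% ± 0.0396 (SD, n = 8) in the larger cluster and 0.719% ± 0.0648 (SD, n = 7) in the smaller one.

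**Figure D3:**
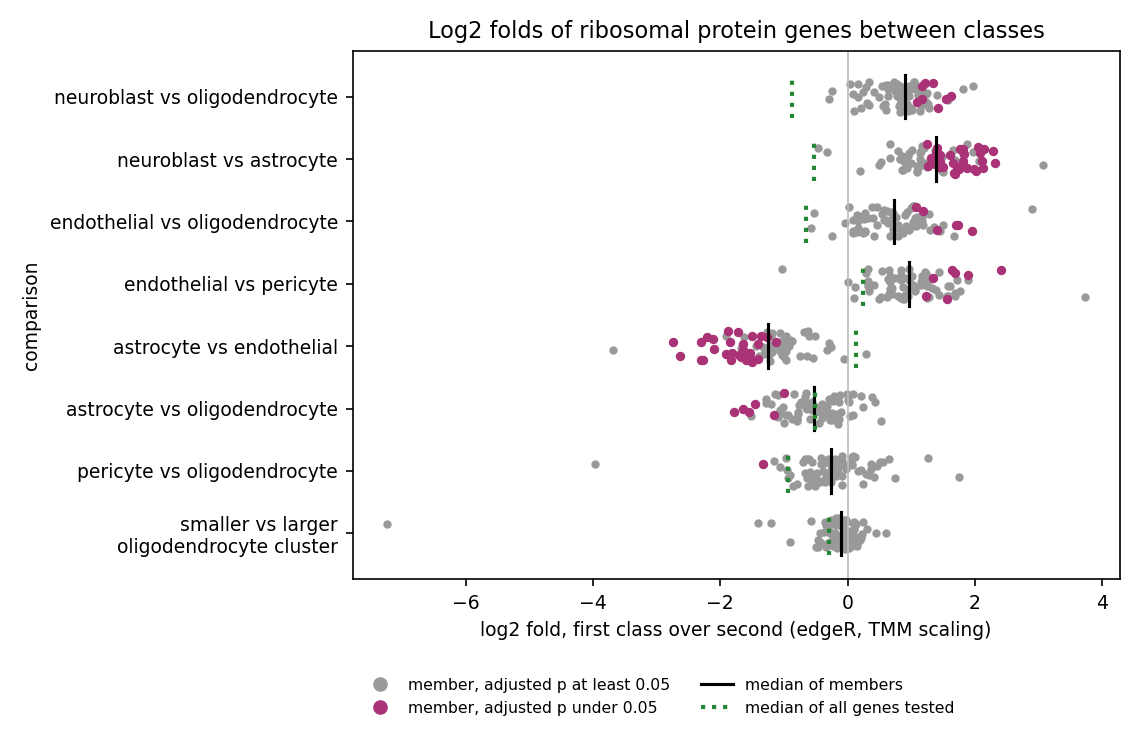
Log2 fold of each member (points, edgeR with TMM scaling) in 8 comparisons, with members called at an adjusted p under 0.05 in purple, the member median as a black line and the median of all genes tested as a dotted green line. Member medians lie above the all-gene median in the 4 comparisons of neuroblast-like or endothelial-like wells listed first, by 0.72 to 1.92 log2 units, and 1.38 below it for astrocyte-like against endothelial-like wells. Members minus all genes is also 0.68 for pericyte-like against oligodendrocyte-like wells. It is 0.19 between the oligodendrocyte-like clusters and -0.03 for astrocyte-like against oligodendrocyte-like wells.

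Levels of different members were compared per kilobase of exon, as the mean over 5 classes weighted equally. The median member stood at 66.9 CPM per kilobase. Rpl4 was the highest at 316.9, followed by Rpl8 at 291.99, Rps15 at 272.9, Rps3a1 at 201.98 and Rpl36 at 201.5, all core proteins. Rpl13a was the lowest at 5.82, with Rpl35a at 14.2, Rps15a at 15.3, Rpl23a at 15.9 and the paralogue Rpl7l1 at 16.2 above it. Lengths count all annotated exons of a gene; with the longest transcript in their place, 3 of the 5 highest and 4 of the 5 lowest genes were the same. Rpl4 lies on chromosome 9 at 64173375 to 64178666 and Rpl13a on chromosome 7 at 45125558 to 45128761 in GRCm38. The level per kilobase thus differed by over an order of magnitude between the highest and lowest core members. It is a level of RNA and does not measure the amount of protein. The table also has rows for pseudogenes named after ribosomal protein genes, which together took 0.0108% of the counts in neuroblast-like wells and less in the 4 other classes. The sources used here do not say how reads that match several copies were counted, so the level of a gene with near-identical copies is uncertain.

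The division of counts between the 2 subunits was described without a test. Small-subunit genes took 46.1% of the member counts in neuroblast-like, 46.3% in endothelial-like, 43.5% in pericyte-like, 44.2% in oligodendrocyte-like and 44% in astrocyte-like wells. Over single mice the range was 44.4% to 49.9% in neuroblast-like and 41.8% to 45.6% in astrocyte-like wells. A few members departed from the common order, measured as the log2 level relative to the median member of the same class and compared with the gene's own mean over the classes. In oligodendrocyte-like wells Rpsa was 0.82 above its mean, Rpl28 0.75 and Rpl14 0.63, each upward in 8 of 8 mice. In CPM, Rpsa ran from 159.9 to 250.8 there, from 273.7 to 711 in neuroblast-like and from 12.5 to 175.6 in astrocyte-like wells. In neuroblast-like wells Rpl13a was 0.97 above its mean in 8 of 8 mice. It ran from 15.6 to 66.2 CPM there and stayed at or under 8.596 CPM in every oligodendrocyte-like mouse. Its log2 fold between these classes was 1.97 ± 1.21 (SE) and did not pass the edgeR test (adjusted p = 0.342). In pericyte-like wells Rps27l was 0.95 above its mean in 8 of 8 mice.

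None of the 5 paralogues was called by edgeR in any comparison. Rps27l, a p53 target that resembles Rps27, stood at 110.6 ± 64.6 CPM per kilobase (SD, n = 8) in pericyte-like wells, where Rps27 stood at 144.3 ± 48.3. In endothelial-like wells the values were 88.2 ± 64.8 and 236.6 ± 64.8. Rpl22l1 exceeded Rpl22 on average in pericyte-like wells, at 28.7 ± 22.2 against 15.4 ± 10.3 CPM per kilobase, and was below it in oligodendrocyte-like wells, at 8.04 ± 1.75 against 20.4 ± 5.82. Rpl36al was likewise above Rpl36a in oligodendrocyte-like wells, at 22.9 ± 4.15 against 16.3 ± 6.61, and below it in neuroblast-like wells, at 44.8 ± 22.4 against 72.8 ± 24.8. Rpl7l1 stayed below Rpl7 on average in all 5 classes, for instance at 12.1 ± 2.54 against 61.9 ± 17.0 in oligodendrocyte-like wells. The ratio of each paralogue to its partner was compared between classes within mice in 35 exact sign-flip permutation tests (two-sided), chosen after the levels had been seen. None passed after adjustment. The lowest adjusted p was 0.137, with the smallest raw p that 8 mice allow, 0.00781, for Rpl22l1 over Rpl22 in astrocyte-like against endothelial-like wells (higher in 8 of 8 mice, mean log2 difference 2.70 ± 2.70 SD) and for Rpl36al over Rpl36a in neuroblast-like against oligodendrocyte-like wells (lower in 8 of 8 mice, -1.33 ± 1.03).

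Rps4l was at 0 in at least 1 mouse in each of the 5 classes. In neuroblast-like wells it had 43.8, 35.1 and 73.6 CPM in control mice 1, 3 and 5 and was at 0 in the other 5 mice. In endothelial-like wells it was at 0 in control mice 1 and 5 and between 98.9 and 194.7 CPM in the other 6. In oligodendrocyte-like wells its highest mouse was at 34.03 CPM. No comparison called it. Counts of it come from few wells: it was detected in 15.4% of wells, and the 5 mice at 0 in neuroblast-like wells had 2 to 5 such wells each. Its fold between neuroblast-like and oligodendrocyte-like wells was -0.25 ± 1.90 (SE; edgeR adjusted p = 0.973). Rps4l is annotated as a processed pseudogene and resembles Rps4x, so how its reads were told apart from those of related copies was not tested.

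**Figure D4:**
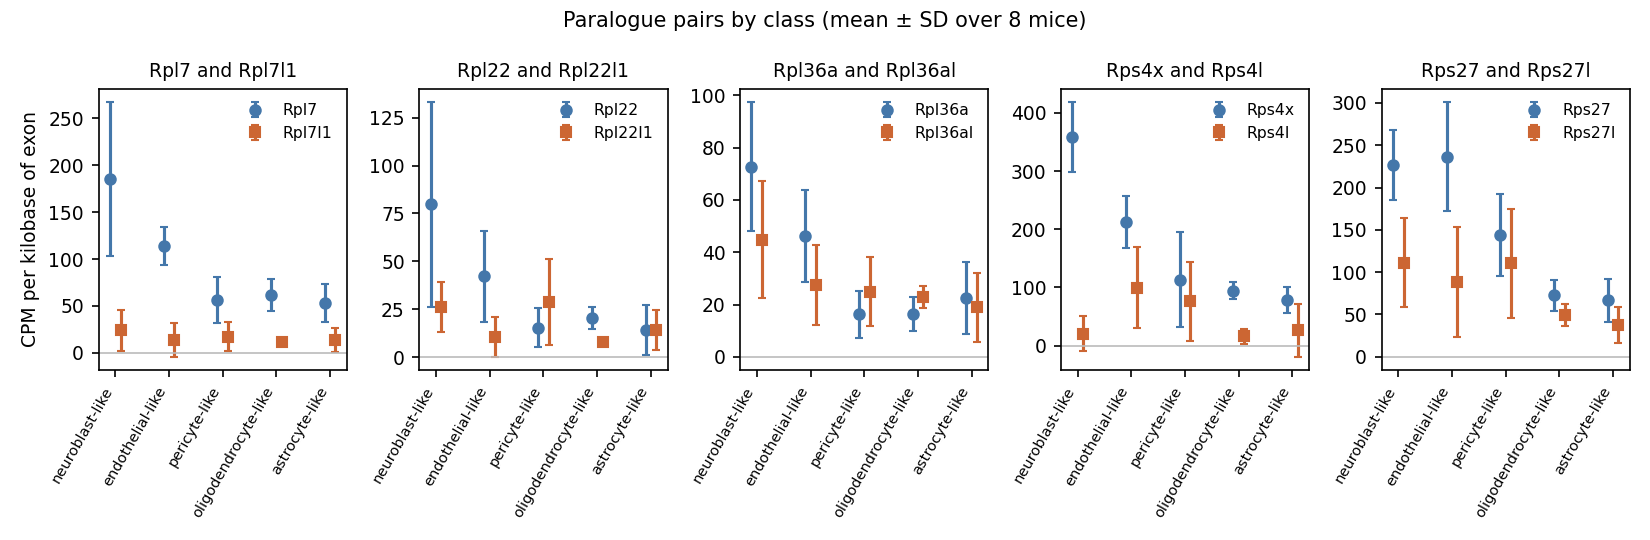
Mean ± SD over 8 mice of the level per kilobase of exon (CPM per kilobase, linear axes that differ between panels) for 5 members (circles) and their paralogues (squares) in 5 classes. The circles are highest in neuroblast-like wells except for Rps27, while the means of Rpl22l1 (28.7 ± 22.2) and Rps4l (99.4 ± 69.3) are highest in pericyte-like and endothelial-like wells with wide error bars.

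Other parts of the translation machinery moved with the members only in part. Of the 5 core genes outside the name pattern, Rplp0, a stalk protein of the large subunit, rose in neuroblast-like wells against astrocyte-like wells, with a log2 fold of 2.305 ± 0.354 (SE; edgeR adjusted p = 1.23e-05). Rplp2, its partner in the stalk, rose there too, with 1.42 ± 0.474 (adjusted p = 0.0414), so 2 of 5 were called, where 2.61% of all genes were called higher. Rplp0 had 1291 ± 404 CPM in neuroblast-like and 316.9 ± 39.1 CPM in oligodendrocyte-like wells (SD, n = 8). Its log2 fold between these classes was 1.09 ± 0.342 (SE; edgeR adjusted p = 0.0234). It was the 1 of 5 called there, where 2.89% of all genes were called higher. Rplp2, Rplp1 and Fau, at 0.90, 0.38 and -0.25, were not called. Rplp0, Rplp1 and Fau fell in astrocyte-like against endothelial-like wells, so 3 of 5 were called there, where 6.94% of all genes were called lower. Of 11 tested elongation and termination factors, Eef1a1, which brings aminoacyl-tRNA to the ribosome, Eef2, which moves it along the message, and Tpt1 rose in neuroblast-like against astrocyte-like wells, 3 of 11 against that background of 2.61%. Eef1a1 had 3049 ± 649 CPM in neuroblast-like and 376.7 ± 125.7 CPM in astrocyte-like wells (SD, n = 8; log2 fold 2.23 ± 0.277 SE, adjusted p = 3.63e-07). The messages of these factors carry TOP tracts as well. The same 3 fell in astrocyte-like against endothelial-like wells, where 6.94% of all genes were called lower. In neuroblast-like against oligodendrocyte-like wells, 0 of the 11 factors were called.

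Of 32 initiation factors, only Eif3h rose in neuroblast-like against astrocyte-like wells, with a log2 fold of 1.95 ± 0.664 (SE; edgeR adjusted p = 0.0471), and the list's median was 0.32. Of 24 ribosome assembly factors tested, Nop58 rose in that comparison, and the list's median was 0.62. There 2.61% of all genes were called higher, so the share called in each of these lists was near the background. Calls in these 2 lists also ran the other way, but they made up a smaller share of each list than of all genes. Against oligodendrocyte-like wells the initiation factors Eif1 and Eif4h and the assembly factor Sbds fell in neuroblast-like wells, with log2 folds of -1.15 ± 0.357, -1.31 ± 0.411 and -5.11 ± 1.42 (SE; adjusted p = 0.0216, 0.0226 and 0.00906). In that comparison 13.2% of all genes were called lower. The assembly factors Tsr1 and Nop2 rose in astrocyte-like against endothelial-like wells, with adjusted p of 0.00638 and 0.0308, where 10.2% of all genes were called higher. In neuroblast-like against astrocyte-like wells, the 76 mitochondrial ribosomal protein genes tested had a median of -0.33, and 0 of them were called. All genes had a median of -0.53 in that comparison and the cytosolic members 1.39. In neuroblast-like against oligodendrocyte-like wells the mitochondrial genes had a median of -0.44 with 0 called. Of 14 mTORC1 and TOP regulators tested, 0 were called in either neuroblast-like comparison. Sesn1, an inhibitor of mTORC1, was the one regulator that rose in endothelial-like against oligodendrocyte-like wells, from 21.6 ± 10.6 to 205.1 ± 52.8 CPM (SD; log2 fold 3.10 ± 0.537 SE, adjusted p = 8.08e-05). That was 1 of the 14, a share near the 6.98% of all genes called higher there. In endothelial-like against pericyte-like wells 1 regulator was higher, where 4.8% of all genes were. In astrocyte-like against oligodendrocyte-like wells 1 was higher, where 6.47% of all genes were. In pericyte-like against oligodendrocyte-like wells 2 were higher and 1 lower, against 6.41% and 15% of all genes. The 7 non-coding snoRNA hosts tested, whose spliced RNAs begin with TOP tracts, had medians of 1.57 and 1.99 in the neuroblast-like comparisons, with 0 called. None of the 6 integrated stress response genes tested was called in any class comparison.

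The start sites of members were read from RefSeq promoters (GRCm38.p6), which covered 58 of the 78 genes. The following 30-base windows, 15 bases on each side of an annotated start and written 5′ to 3′ on the gene's strand, are shown because they belong to members named in the text and give examples with and without the motifs. Capitals mark the 6-base motif CTTTCC or the 7-base motif CTCTTTC, which share bases where they run together.
Rpl38, chr11:114668565-114668594, plus strand: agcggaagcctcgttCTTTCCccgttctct
Rps27, chr3:90213634-90213663, minus strand: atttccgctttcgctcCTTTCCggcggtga
Rpl28, chr7:4792950-4792979, plus strand: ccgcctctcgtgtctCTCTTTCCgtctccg
Rpl35a, chr16:33056467-33056496, plus strand: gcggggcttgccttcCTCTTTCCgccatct
Rpl18, chr7:45718056-45718085, plus strand: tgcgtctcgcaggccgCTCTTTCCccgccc
Rps24, chr14:24490663-24490692, plus strand: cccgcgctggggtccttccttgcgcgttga
Rpl4, chr9:64173372-64173401, plus strand: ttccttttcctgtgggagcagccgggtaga
Rps3, chr7:99483695-99483724, minus strand: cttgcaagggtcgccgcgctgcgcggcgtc
Rpl22l1, chr3:28805493-28805522, plus strand: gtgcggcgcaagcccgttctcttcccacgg
Rps27l, chr9:66946071-66946100, plus strand: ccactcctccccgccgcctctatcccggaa
Among the windows shown, the longest unbroken pyrimidine run was 13 bases in that of Rpl35a, 11 in those of Rpl28 and Rpl4, 10 in those of Rpl38, Rpl18 and Rpl22l1, and 3 in that of Rps3. Rpl35a, Rps24 and Rps27l have further annotated starts whose windows are not shown. Those windows held neither motif and no pyrimidine run above 5 bases.

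On the gene's strand, CTTTCC occurred in this window for 9 of 58 members (15.5%) and for 1.67% of all 27025 genes with a promoter entry. CTCTTTC occurred for 6 members (10.3%) and for 0.488% of all genes. On the other strand CTTTCC was found for 0 of 58 members and 1.48% of all genes, and CTCTTTC for 1 member (1.72%) and 0.400% of all genes. A pyrimidine run of at least 6 bases was found for 36 members (62.1%) and 32.7% of all genes. In the whole 300-base window, CTTTCC was found for 41.4% of members against 16.02% of genes on the gene's strand and for 17.2% against 16.1% on the other. A run anywhere in this window is not by itself a TOP tract, which lies at the start of the message. Whether runs or motifs went with the differences between classes was not tested.

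The miR-132 mimic was compared with the control oligonucleotide to ask whether it changed gene activity in the sorted cells. No ribosomal protein gene was called by edgeR in all kept wells or in endothelial-like, pericyte-like, oligodendrocyte-like or astrocyte-like wells, where 0% of all genes were called as well. Members with an unadjusted p under 0.05 numbered 0, 0, 0, 2 and 1 in these sets, and DESeq2 called 0 in each. Over all genes, DESeq2 called 0.136% in all kept wells, 1.41% in endothelial-like, 0.275% in pericyte-like, 0.0865% in oligodendrocyte-like and 0.45% in astrocyte-like wells. In data simulated on the mouse totals of all kept wells, with a set dispersion of 0.3 and 16755 genes where the real test had 8822, the same test recovered 0% of genes changed 2-fold and 14% of those changed 4-fold. In the real fit the SEs of the members' log2 folds ran from 0.161 for Rps3 to 0.481 for Rps4l. The dispersion was set and not taken from the members, so these percentages do not tell how often a changed member would be called.

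The share of counts on members was 0.920% ± 0.0553 (SD, n = 4) in control mice and 0.885% ± 0.0543 (SD, n = 4) in mimic mice over all kept wells, with overlapping ranges. In endothelial-like wells it was 1.42% ± 0.0863 and 1.33% ± 0.0918, and in neuroblast-like wells 2.44% ± 0.274 and 2.37% ± 0.328. Within sort days the difference, mimic minus control, was -0.0521 and -0.0179 percentage points in all kept wells, and in astrocyte-like wells it was 0.0163 on the first and -0.0516 on the second day. The members' median log2 fold lay between -0.09 and 0.06 over the 5 cell sets, but the median of all genes tested was higher in each. The all-gene median was 0.00046 in all kept wells, 0.37 in endothelial-like, 0.06 in pericyte-like, 0.01 in oligodendrocyte-like and 0.21 in astrocyte-like wells. Members minus all genes was -0.09, -0.34, -0.12, -0.10 and -0.15 in the same order, and in endothelial-like wells it ran from -0.60 to -0.19 when 1 mouse at a time was left out. These differences are given without a test.

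The smallest unadjusted p of any member over the 5 cell sets was that of Rpl21, a large-subunit protein, in oligodendrocyte-like wells. It had 131.5, 140.6, 151.8 and 157.1 CPM in control mice 1, 3, 5 and 7 and 99.6, 74.8, 113.2 and 98.5 CPM in mimic mice 2, 4, 6 and 8. The groups did not overlap, and 1.17% of all genes were separate in that direction. The log2 fold was -0.61 ± 0.181 (SE), with an unadjusted p of 0.00782 and an adjusted p of 1.00 by edgeR over 8088 genes. In all kept wells too it was the 1 member whose groups did not overlap, where 1.11% of all genes were lower without overlap. When wells were assigned to mice by the sample titles instead of the descriptions, the fold turned to 0.17. Rpl9 ran the other way, with 94.6 to 118.8 CPM in control and 131.3 to 163.6 CPM in mimic mice, and Rpl18 was also separate and higher, where 1.41% of all genes were. Rpl9 had a log2 fold of 0.41 ± 0.176 (unadjusted p = 0.0463, adjusted p = 1.00). In endothelial-like wells 5 members, Rps3, Rps7, Rpl38, Rps10 and Rps14, were lower in all 4 mimic mice than in the 3 control mice with enough wells, where 2.39% of all genes were separate in that direction. Control mouse 1, left out for its 4 wells, had 314.4 CPM of Rps3 and 144.2 CPM of Rps7, both below the lowest mimic mouse, at 429.7 and 144.3 CPM. In pericyte-like wells Rpl34 was higher and Rpl27a lower without overlap, where 1.36% and 0.988% of all genes were. Rps7, Rps10, Rps14, Rpl34 and Rpl27a are named here after their values were seen. Rpl22 had the smallest p in all kept wells, with 86.8 ± 19.3 CPM in control mice against 55.9 ± 21.1 CPM after the mimic (SD, n = 4 each; log2 fold -0.66 ± 0.319 SE, adjusted p = 0.999).

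**Figure D5:**
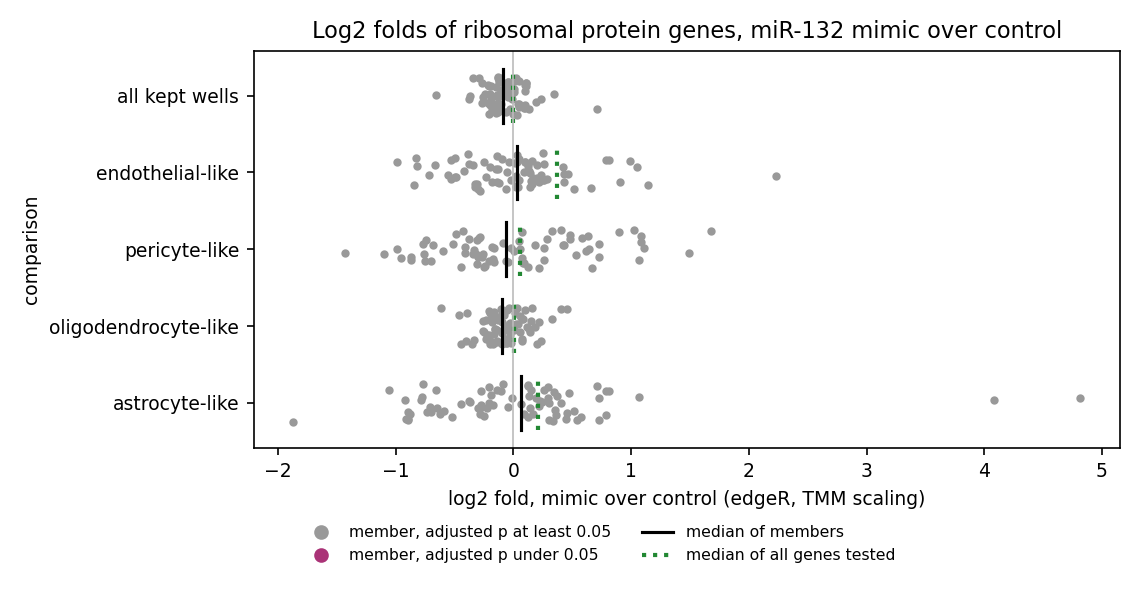
Log2 fold of each member (points) for miR-132 mimic over control in 5 cell sets (edgeR with TMM scaling), with the member median as a black line and the median of all genes tested as a dotted green line. No point reaches an adjusted p under 0.05, and the member medians lie between -0.09 and 0.06, below the all-gene median in each set.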

How the data were processed

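The authors deposited 1 table of raw counts per gene and well. The submitters' processing notes name the build mm10, STAR and Subread with featureCounts 1.5.1 beside FastQC, and Seurat 2.3.1, without settings or order. Wells were assigned to mice by the well names in the sample descriptions; titles gave the same mouse for 96 of 768 wells and the same treatment for 384, and were the alternative. Every one of the 768 columns was used.

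Wells with at least 50000 counts, 1000 genes and at most 15% mitochondrial counts were clustered (scanpy 1.11.5, Leiden, 2000 variable genes, 20 components, 15 neighbours, resolution 1) without ribosomal protein genes; no doublet caller was run. A cluster was named when at least 3 markers of a list were in most of its wells and higher there. That rule, the limit of 6000 genes and the sums of 2 wells were set after the counts had been seen. The members and lists were chosen with earlier results of these data known. Counts were summed per mouse and class (at least 5 wells) and tested with edgeR 4.0.16 (glmQLFit, glmQLFTest, TMM, a mouse term between classes and a sort-date term between treatments, genes in at least 10% of wells that passed filterByExpr, adjusted p under 0.05). SE is the absolute log2 fold over the root of the F statistic. Alternatives, with DESeq2 1.42.0 among them, are given at the end. The fits were checked on simulated counts: between endothelial-like and oligodendrocyte-like sums (13333 genes, set dispersion 0.3), 5% of 2-fold and 78% of 4-fold changes were recovered. CPM uses all counts of the sum. Named genes are, per comparison, up to 5 called members of largest fold in each direction, the paralogues, the 5 highest and lowest per kilobase, the 3 of smallest treatment p in each direction, the 3 on each side of the detection limit, up to 4 per translation list and 3 departures per class; not all are printed. The planned minimum of 5 wells per sum was met by neuroblast-like wells in 3 mice only, so those comparisons use sums of 2 or more. Some genes in these fits and counts are not reported here.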

Additional observations from a re-analysis of the deposited data

Results flagged for a closer look

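A single mouse lay far from the others in 18 (9.52%) of the sets of 4 to 8 mouse values tested. The sets share the same mice and wells, so no rate expected by chance is given. No explanation was weighed.

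Control mouse 3 stood apart most often. Its pericyte-like wells, 5 in number, had 16.5 CPM of Rps24 where the other mice had 72.4 to 120.8, 772 CPM of Rps3 where they had 205.8 to 402.1, and 253.8 CPM of Rps3a1 where they had 57.8 to 146.3. Its 6 endothelial-like wells had 139.3 CPM of Rpl36a (others 35.6 to 83.02), 127.1 CPM of Rps27a (others 188.5 to 229.6) and 321.1 CPM of Rps7 (others 144.2 to 210.3).

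Control mouse 7, with 2 neuroblast-like wells, had 492 CPM of Rpl27a there (others 119.3 to 254.8), 444 CPM of Rps23 (others 233.4 to 309.2) and 177.8 CPM of Rps27l (others 37.6 to 103.5). In its oligodendrocyte-like wells Rpl22 stood at 95.4 CPM (others 41.5 to 66.7). Control mouse 5 had 237.6 CPM of Rps16 in endothelial-like wells (others 106.9 to 146.5) and 189.9 CPM of Rps27a in oligodendrocyte-like wells (others 115.96 to 144.7).

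Mimic mouse 6 had 83.4 CPM of Rpl36al in endothelial-like wells (others 13.3 to 40.4), 42.99 CPM of Rpl36al in oligodendrocyte-like wells (others 24.9 to 33.4) and 475 CPM of Rps4x in pericyte-like wells (others 50.1 to 239.9). Mimic mouse 4 had 255.4 CPM of Rpl7 in astrocyte-like wells (others 84 to 162.4). Among the 4 mice of a treatment, mimic mouse 6 had 103.3 CPM of Rpl7a in pericyte-like wells (others 46.7 to 52.6), and control mouse 5 had 2.03 CPM of Rpl13a in astrocyte-like wells, where the other control mice had 0 to 0.149.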

How the results depend on the processing

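The member median stayed above the all-gene median by 1.73 to 1.88 (neuroblast-like against oligodendrocyte-like) and by 1.27 to 1.47 (endothelial-like against oligodendrocyte-like) when 1 mouse at a time was left out, while the number of members called moved widely. The cause was not tested. The counts of calls below follow the order neuroblast-like against oligodendrocyte-like, neuroblast-like against astrocyte-like, endothelial-like against oligodendrocyte-like, endothelial-like against pericyte-like, astrocyte-like against endothelial-like, astrocyte-like against oligodendrocyte-like and pericyte-like against oligodendrocyte-like, where the reported ones are 8, 33, 6, 7, 30, 6 and 1. Without the filter on low counts all 7 were 0. With total counts in place of TMM the first 3 were 59, 65 and 17, and the last 2 were 3 and 0. DESeq2 gave 40, 61, 21 and 26 for the first 4, 4 for the last and 1 between the oligodendrocyte-like clusters. Without the mouse term the first was 13, the third 14 and the fourth 13. With wells assigned by sample titles the first 4 were 25, 50, 14 and 18. With classes from marker scores the first was 0, the third 1, the sixth 3 and the last 2. Clusters built with the members, and likewise leaving out the smooth muscle-like wells, gave 11 for the fourth, 3 for the sixth and 2 for the last. Leaving out 1 mouse gave 1 to 4, 17 to 30, 1 to 7, 2 to 8, 17 to 30, 2 to 6 and 0 to 1 in the same order. Alternatives on the neuroblast-like comparisons and the smooth muscle-like wells were chosen after seeing the data. Except for DESeq2, the share of all genes called in these alternatives is not given. Their counts therefore do not tell whether the members or all genes moved.

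The order of the classes by share of counts held with the 50 highest genes of each class left out of the total, at 3.16%, 1.965%, 1.181%, 1.159% and 0.802%. As the median of wells the endothelial-like share was 1.254% and the astrocyte-like share 0.4402%. Leaving out 1 mouse gave 2.34% to 2.447%, 1.359% to 1.394%, 0.8327% to 0.8695%, 0.7109% to 0.729% and 0.5038% to 0.5319%. The median level per kilobase was 108.6 with the longest transcript and 50.11 over all wells pooled.

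No member was called between treatments in any setting. Assigning wells by sample titles turned the sign of 13 treatment folds: Rps4l to -0.1208, Rpl7l1 to -0.07598 and Rpl21 to 0.1254 in all kept wells; Rpl3 to -0.313, Rpl7a to 0.3043 and Rps2 to 0.2968 in endothelial-like wells; Rps3 to 0.5714 and Rpl7a to 0.1006 in pericyte-like wells; and Rpl18 to -0.2545, Rps13 to -0.3789, Rpl21 to 0.1712, Rpl7 to 0.0796 and Rpl11 to 0.04649 in oligodendrocyte-like wells. No paired analysis was possible because control and mimic mice share no replicate number.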
